A study of Mus musculus with 8 samples.

Results

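The genes described here encode lymphocyte antigen receptors (the constant and variable segments of immunoglobulins and T cell receptors), the pan-leukocyte phosphatase *Ptprc* and the surface proteins whose symbols follow the CD numbering. They were taken by gene symbol from a table of 812 genes that compares RhoA-deficient with WT alveolar type 2 (AT2) cells, the surfactant-secreting cells of the alveolar epithelium. Of the 812 symbols, 21 matched, and *Cd14* and *Cd74* were set aside by name, which left 19 genes. The rule itself reads only the symbol, although it was written with earlier results of these data known. Every gene of the table carries the authors' mark of a significant difference, so a receptor or CD gene without that mark has no value here. The study's text reports fewer differentially expressed genes than the 812, and why the counts differ is not given in the sources used here. Shares of the table are therefore not shares of that reported set. The WT group was *RhoA* fl/fl, labelled wildtype, and the RhoA-deficient group was *Sftpc-cre;RhoA* fl/fl, in which the surfactant protein C promoter drives Cre recombinase and the floxed *RhoA* gene is deleted where that promoter is active. Both groups carried the floxed allele, were of the C57BL/6 strain, were labelled as single-passage primary AT2 cells, and received cockroach extract (CRE, an allergen) at 50 μg/mL for 16 hours. The labels list 4 samples per genotype, and no group without CRE is among them. The labels do not say how many mice gave each sample. The sources differ on the exposure, since the labels describe CRE added to cultured cells and the study's text describes AT2 cells from mice given CRE as an asthma model, so exposure in the animal, in culture or in both cannot be told apart here. The study's methods isolated AT2 cells from dispase-digested lung with antibodies to CD45, an Fc receptor, Ter119 and Sca-1 on magnetic beads, followed by collection of the cells that did not adhere to dishes coated with mouse IgG. CD45 is the product of *Ptprc*, 1 of the 19 genes.

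T cells recognise antigen through a receptor of paired alpha and beta chains, each with a rearranged variable segment joined to a constant region, and the CD3 proteins carry the signal into the cell. The coreceptors CD4 and CD8 bind MHC class II and class I molecules and mark helper and cytotoxic T cells, respectively. B cells use immunoglobulin in the same role, and B cells and the plasma cells derived from them each express 1 productive heavy chain and 1 productive light chain, so a given kappa variable segment is used by only some of them. CD numbers, by contrast, are a naming scheme for surface proteins of any cell, and epithelial, endothelial and myeloid cells carry many of them.

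Expression was given as FPKM (fragments counted per kilobase of a transcript and relative to all fragments of the library), 1 pooled value per genotype. No value has a replicate error or an n, the depth of each sample is unknown, and no test was run, so every difference below compares these pooled values only. Differences are RhoA-deficient minus WT in log2(FPKM + 1), a scale that understates the change of low genes, and fold values are plain ratios of FPKM. In bulk RNA, fewer cells of a type and less RNA per cell cannot be told apart. The table has no row for *Rhoa* or *Sftpc*, so these values hold no check of the deletion. Of 14 genes of an AT2 list, 12 were present, all 12 higher in RhoA-deficient cells, against 55.2% of the whole table.

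Of the 19 genes, 17 were lower in RhoA-deficient than in WT cells, against 44.8% of the 812 genes, and 2 were higher, against 55.2%. A difference of at least 2-fold on the log2(FPKM + 1) scale was found downward in 16 of the 19, against 28.4% of the table, and upward in 0 of the 19, against 23.6%. Both genes set aside by name were higher, *Cd14* with 65.8 FPKM in WT and 132 in RhoA-deficient cells (a difference of 0.99) and *Cd74* with 375 and 1047 (a difference of 1.48), and counting them would make 4 genes higher, 1 of them by at least 2-fold on the log2(FPKM + 1) scale. By plain ratio both reach it, with *Cd14* at 2.00-fold and *Cd74* at 2.80-fold. On the same scale, by a fold of at least 1.5, 17 of the 19 were lower, against 44.5% of the table, and 2 were higher, against 53.4%. By a fold of at least 4 on that scale, 3 of the 19 were lower, against 0.739%, and 0 were higher, against 2.46%. As a plain ratio of FPKM, 6 of the 19 were at least 4-fold lower, against 9.85%. The median difference was -1.42 over the 19 genes and 0.65 over all 812. Among lower genes alone the medians were closer, with -1.43 for the 17 and -1.14 for the 364 lower genes of the table. Among the 17 lower genes, the ratio of WT to RhoA-deficient FPKM ran from 1.75 for *Igkc* to 9.44 for *Cd4*. The 3 lowest differences of the whole table belonged to *Igkv1-133*, *Igkv16-104* and *Cd4*, an order that holds for a pseudocount of 1. With no pseudocount the same genes took places 13, 14 and 11. Their typical abundance was that of the table, with a median of the mean FPKM over both groups of 13.4 for the 19 genes and 13.5 for all 812.

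**Figure D1:**
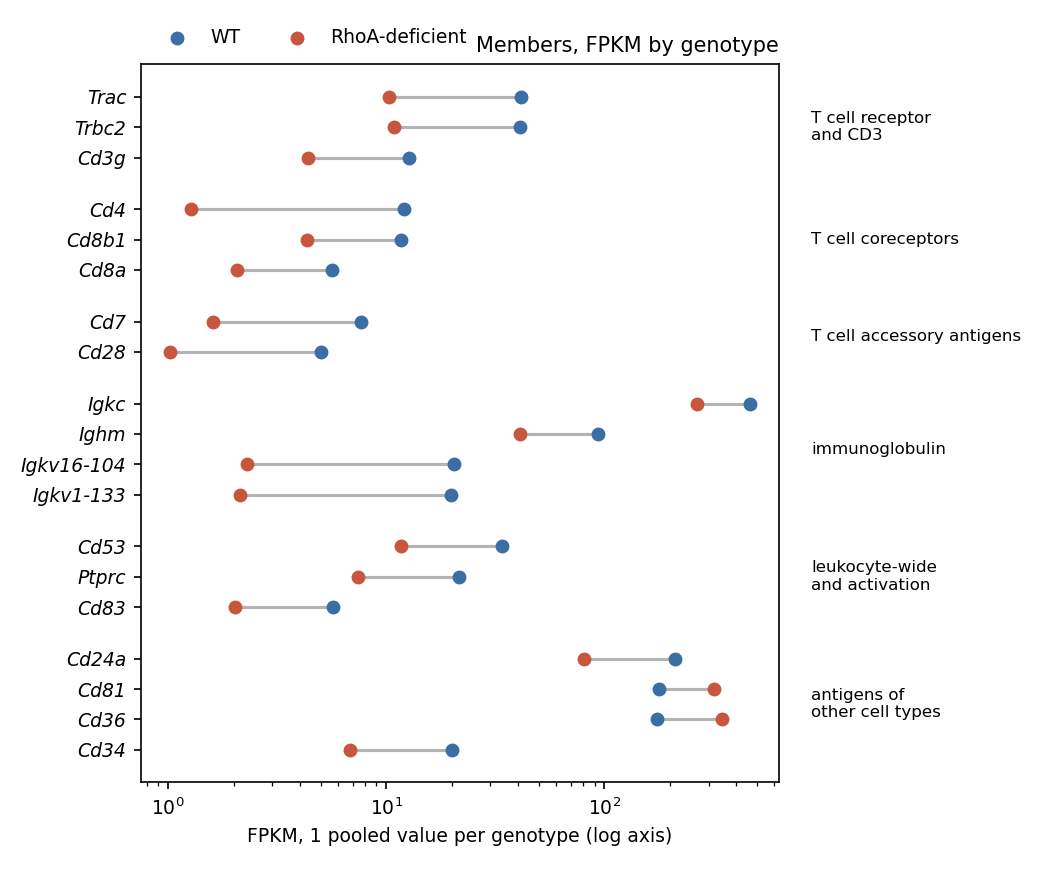
FPKM of the 19 genes on a log axis, with 1 point for the pooled WT value, 1 for the pooled RhoA-deficient value and a line joining them, grouped by role. In 17 genes the RhoA-deficient point lies to the left of the WT point, while *Cd36* and *Cd81* have the reverse order as deposited and are slightly lower when FPKM is scaled to the AT2 list.

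**Figure D2:**
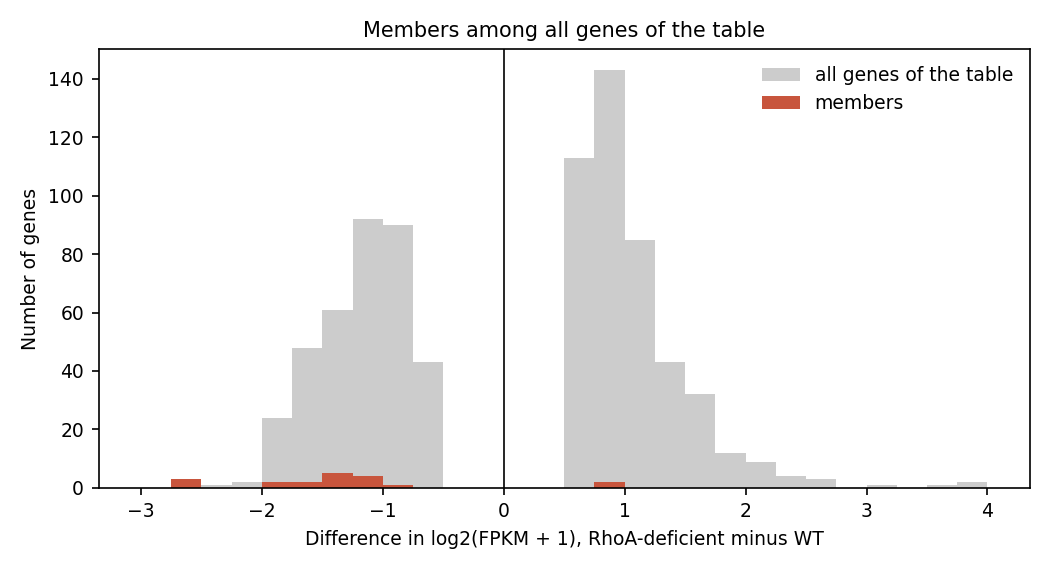
Histogram of the difference in log2(FPKM + 1), RhoA-deficient minus WT, for all 812 genes (grey) and the 19 genes (red), as number of genes per bin. The 3 red genes at the left end are *Igkv1-133*, *Igkv16-104* and *Cd4*, and the 2 red genes right of 0 are *Cd81* and *Cd36*, which cross to the left of 0 when FPKM is scaled to the AT2 list.

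The T cell receptor was represented by the constant regions of its alpha and beta chains and by 1 CD3 chain, all 3 lower in RhoA-deficient cells. *Trac*, the alpha chain constant region (GRCm38 chr14:54220521-54224206, + strand), had 41.2 FPKM in WT and 10.3 in RhoA-deficient cells, a 4.01-fold lower level and a difference of -1.90. *Trbc2*, a constant region of the beta chain (chr6:41546730-41548352, + strand), had 41.0 and 10.9 FPKM, 3.77-fold lower, with a difference of -1.82. The pair had nearly equal levels in WT, with a *Trac* to *Trbc2* ratio of 1.01, and remained close in RhoA-deficient cells, where the ratio was 0.945. *Cd3g*, the CD3 gamma chain (chr9:44969572-44980431, − strand), had 12.7 FPKM in WT and 4.38 in RhoA-deficient cells, 2.91-fold lower, with a difference of -1.35. The receptor constant regions were thus lower by a larger factor than this CD3 chain, and the *Trac* to *Cd3g* ratio was 3.24 in WT and 2.35 in RhoA-deficient cells.

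*Trbc2* has a near copy, *Trbc1*, which lies upstream of it on chromosome 6 and is not among the 812 genes. The stretches below, from the first exon of each gene, show the 1 base, in capitals, at which these exons differ along 375 aligned bases, since fragments from this exon could be assigned to either gene. They are written 5′ to 3′ from GRCm38 with GENCODE M21 gene models.
Trbc2 chr6:41546949-41547028 (+ strand): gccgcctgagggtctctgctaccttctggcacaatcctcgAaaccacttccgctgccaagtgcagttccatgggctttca
Trbc1 chr6:41538437-41538516 (+ strand): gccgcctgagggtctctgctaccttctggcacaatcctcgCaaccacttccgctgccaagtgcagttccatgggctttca
The longest run of identical bases between the exons is 259. The *Trbc2* value above is therefore uncertain as a measure of that gene alone, and the near equality with *Trac* rests on it.

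The coreceptors were lower as well, and *Cd4* differed more between the genotypes than either CD8 chain. *Cd4* (chr6:124864692-124888221, − strand) had 12.0 FPKM in WT and 1.28 in RhoA-deficient cells, a difference of -2.52. *Cd8b1*, the CD8 beta chain (chr6:71322788-71337494, + strand), had 11.6 FPKM in WT and 4.31 in RhoA-deficient cells, 2.7-fold lower, with a difference of -1.25. In WT *Cd4* and *Cd8b1* were thus at similar levels, and in RhoA-deficient cells *Cd4* was the lower of the pair, with a *Cd4* to *Cd8b1* ratio of 1.04 and 0.296, respectively. *Cd8a*, the CD8 alpha chain (chr6:71373427-71379173, + strand), had 5.61 FPKM in WT and 2.06 in RhoA-deficient cells, 2.73-fold lower, with a difference of -1.11. The CD8 genes are neighbours, 35933 bases apart, and their ratio barely moved, from 2.07 *Cd8b1* per *Cd8a* in WT to 2.10 in RhoA-deficient cells. *Cd4* is also expressed by some myeloid cells and *Cd8a* by some dendritic cells, which pooled values cannot separate from T cells.

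*Cd28*, the costimulatory receptor of T cells for CD80 and CD86, and *Cd7*, an immunoglobulin-superfamily protein of T and NK cells, were with *Cd4* the 3 genes at the lowest levels in RhoA-deficient cells, *Cd28* having the lowest of all 19. *Cd28* (chr1:60716800-60773359, + strand) had 5.02 FPKM in WT and 1.02 in RhoA-deficient cells, 4.93-fold lower, with a difference of -1.58. *Cd7* (chr11:121036747-121039418, − strand) had 7.67 and 1.61 FPKM, 4.78-fold lower, with a difference of -1.73. As plain ratios these 2 lie between *Trac* and *Cd4*, while on the log2(FPKM + 1) scale both differences are smaller than that of *Trac*. For *Cd7*, 10.8% of the exonic bases are shared with the opposite-strand gene *Gm11775*, and whether strand entered the authors' estimates is not given in the sources used here.

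The immunoglobulin genes held the most abundant of the 19 genes in WT, *Igkc*, and the 2 lowest differences in log2(FPKM + 1). *Igkc*, the kappa light chain constant region (chr6:70726435-70726966, + strand), had 465 FPKM in WT and 265 in RhoA-deficient cells, 1.75-fold lower, with a difference of -0.81. *Ighm*, the constant region of the IgM heavy chain (chr12:113418558-113422730, − strand), had 92.9 and 41.1 FPKM, 2.26-fold lower, with a difference of -1.16. These constant regions had the smallest ratios of the 17 lower genes, and the *Igkc* to *Ighm* ratio was 5.0 in WT and 6.44 in RhoA-deficient cells. The 2 kappa variable segments in the table had far larger ratios, below that of *Cd4* alone. *Igkv1-133* (chr6:67724902-67725661, + strand) had 19.8 FPKM in WT and 2.13 in RhoA-deficient cells, 9.27-fold lower, with a difference of -2.73. *Igkv16-104* (chr6:68425575-68426072, + strand) had 20.3 and 2.29 FPKM, 8.89-fold lower, with a difference of -2.7. These segments had nearly the same levels as each other in both groups, whereas the constant region to which either may be joined was present at 23.5 times the level of *Igkv1-133* in WT and 124 times in RhoA-deficient cells. *Igkc* and *Ighm* transcripts come from every kappa and IgM cell, and a variable segment from those that use it. The number of cells behind each segment is unknown.

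The 2 segments are different sequences, shown here because their values were so alike. Over 396 aligned columns of their transcripts, 238 were identical (60.1%), and the longest identical run was 12 bases. *Igkv1-133* has a far closer copy in *Igkv1-135*, which is not among the 812 genes and matches it at 361 of 374 bases, with a longest identical run of 95. The stretches below are the last 120 bases of *Igkv1-133* and *Igkv16-104* and the stretch of *Igkv1-135* that aligns with the former. Capitals mark the 5 bases at which the first and second differ, and the third has none because it is no close copy of them.
Igkv1-133 chr6:67725542-67725661 (+ strand): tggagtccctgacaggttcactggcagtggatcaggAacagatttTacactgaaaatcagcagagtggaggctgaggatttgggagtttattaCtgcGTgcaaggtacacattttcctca
Igkv1-135 chr6:67610389-67610508 (+ strand): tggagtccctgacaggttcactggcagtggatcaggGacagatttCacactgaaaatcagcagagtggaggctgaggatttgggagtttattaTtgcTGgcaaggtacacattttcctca
Igkv16-104 chr6:68425953-68426072 (+ strand): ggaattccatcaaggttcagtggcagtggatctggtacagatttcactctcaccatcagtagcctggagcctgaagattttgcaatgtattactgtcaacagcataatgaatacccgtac
Germline segments are shown, and hypermutated transcripts can differ from them. Fragments of *Igkv1-133* could be divided with its copies, so its value is uncertain for that segment alone. The search for close copies, at 90% identity or more over at least 200 bases, returned one for 3 of the 19 genes: *Igkv1-133*, *Trbc2* and *Cd24a*.

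Genes of leukocytes in general were lower by a common factor. *Ptprc* (chr1:138062861-138175708, − strand), which encodes the CD45 phosphatase that sets the threshold of antigen receptor signalling, had 21.5 FPKM in WT and 7.41 in RhoA-deficient cells, 2.90-fold lower, with a difference of -1.42. *Cd53*, a tetraspanin of most leukocytes (chr3:106759921-106790149, − strand), had 33.8 and 11.7 FPKM, also 2.90-fold lower, with a difference of -1.46. *Cd83*, an activation antigen of dendritic cells and lymphocytes (chr13:43784775-43803132, + strand), had 5.71 and 2.02 FPKM, 2.83-fold lower, with a difference of -1.15. Expressed as a percentage of *Ptprc* in the same group, *Cd53* was at 157% in both, *Cd3g* at 59.2% in WT and 59.0% in RhoA-deficient cells, and *Cd8a* at 26.1% and 27.7%. Against the same reference, *Cd4* went from 56.0% in WT to 17.2%, *Cd28* from 23.3% to 13.7%, *Cd7* from 35.6% to 21.7% and *Trac* from 192% to 139%. *Ighm* went the other way, from 432% of *Ptprc* in WT to 555%, and *Igkc* from 2161% to 3573%. The lower genes thus fell into those that moved by about the factor of *Ptprc*, those lower by a larger factor (*Cd4*, the kappa variable segments, *Cd28*, *Cd7* and the receptor constant regions), and the immunoglobulin constant regions, lower by a smaller one. This ordering describes the pooled values, and the differences between these ratios were not tested.

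**Figure D3:**
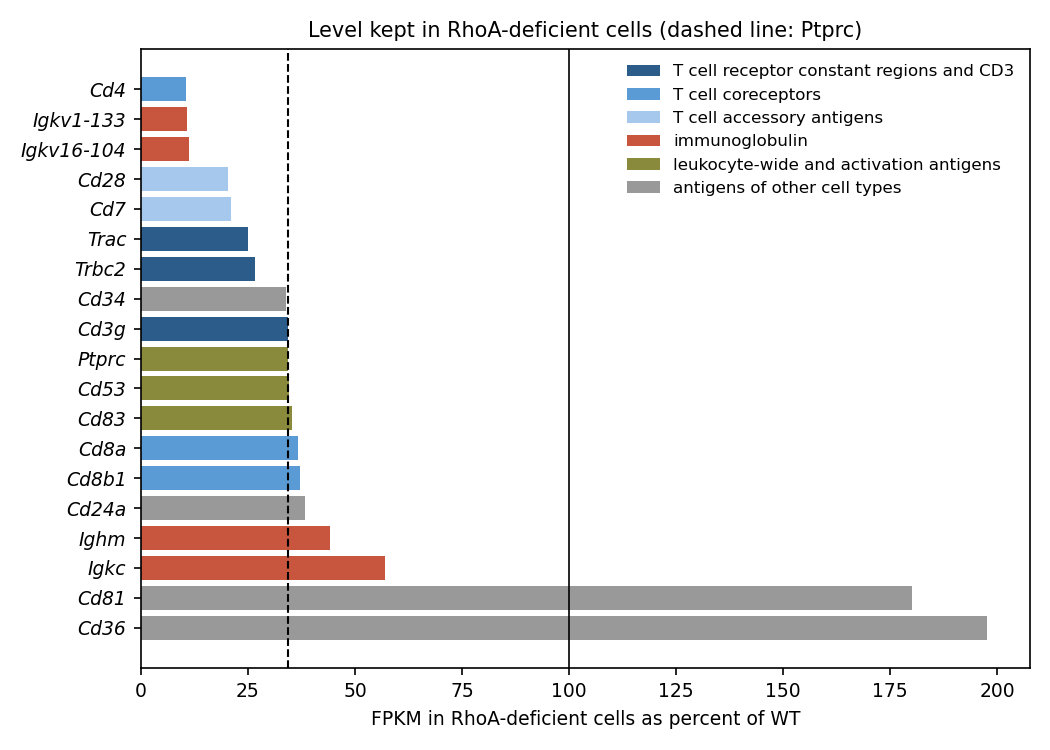
FPKM in RhoA-deficient cells as a percentage of WT for each of the 19 genes, as bars from 0, sorted and coloured by role, with a dashed line at the percentage of *Ptprc* (34.5%) and a solid line at 100%. *Cd4* and the kappa variable segments kept 10.6% to 11.2% of the WT level, 8 genes from *Cd34* to *Cd24a* kept 34.0% to 38.3%, and only *Cd81* and *Cd36* lie beyond 100%, where they do not remain when FPKM is scaled to the AT2 list.

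The other 4 genes carry CD numbers but are expressed well beyond lymphocytes, and they did not share a direction. *Cd34*, a sialomucin of haematopoietic progenitors, endothelium and some fibroblasts (chr1:194938819-194961279, + strand), had 20.0 FPKM in WT and 6.80 in RhoA-deficient cells, 2.94-fold lower, with a difference of -1.43. *Cd24a*, a small mucin-like protein of B cell precursors, neutrophils and epithelium (chr10:43578284-43584265, + strand), had 210 and 80.7 FPKM, 2.61-fold lower, with a difference of -1.37, and is among the 3 genes with a close copy in the genome. The ratios of *Cd34* and *Cd24a* were close to that of *Ptprc*. *Cd36*, a scavenger receptor and fatty acid transporter (chr5:17781690-17888801, − strand), had 174 FPKM in WT and 345 in RhoA-deficient cells, 1.98-fold higher, with a difference of 0.98, and -0.06 when FPKM was scaled to the AT2 list. *Cd81*, a tetraspanin that belongs to the B cell coreceptor and is also expressed in epithelium (chr7:143052739-143067934, + strand), had 177 and 319 FPKM, 1.80-fold higher, with a difference of 0.85, and -0.19 under that scaling. As deposited, *Cd36* and *Cd81* stood apart from the 17 others in direction, and their summed level with *Cd34* and *Cd24a* went from 582 FPKM in WT to 751.

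The scaling referred to sets the summed FPKM of the AT2 list equal in both groups. That sum was 5600 FPKM in WT and 11529 in RhoA-deficient cells, a factor of 2.06. FPKM is a share of the total, so the share of AT2 genes and that of any other gene are not independent. With the scaling, the median difference over the 812 genes moved by -1.01, from 0.65 to -0.36, the split of the table moved from 364 lower and 448 higher to 590 lower and 222 higher, and all 19 genes were lower, with a median of -2.28. The median of the 19 lay below the median of all genes on either scale. The scaling applies the same factor to every gene and could barely change this order, so nothing is concluded from it. *Lyz2* made up 60.0% of the WT sum. Macrophages also express *Lyz2*, so the factor is no measure of AT2 cells alone. Without *Lyz2* the factor was 2.22, and the values under that scaling are given with the other processing choices.

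Lists of related genes were set beside these 19, and for each the number found in the table limits what can be said. Among surface antigens, the 19 genes supplied every hit. Of 24 listed for T and NK lymphocytes, 7 were found, all 7 lower, against 44.8% of the 812 genes. For B cells it was 1 of 9 (*Cd83*, lower). *Cd53*, on the T and NK list, and *Cd83* are also antigens of other leukocytes, as described above. Myeloid cells had 1 of 12 (*Cd36*, higher as deposited and lower when scaled to the AT2 list). Vascular cells had 1 of 5 (*Cd34*, lower), and epithelium and many cell types 2 of 21 (*Cd24a* and *Cd81*). The list of T cell receptor signalling also holds T cell transcription factors and *Il7r*. Of its 23 genes, 9 were in the table and all 9 were lower, against 44.8% of the 812 genes. They were lower by 3.59-fold to 6.33-fold, with a median difference of -1.76 against 0.65 for all 812. *Lck*, the kinase bound to CD4 and CD8, had 23.4 FPKM in WT and 6.43 in RhoA-deficient cells. *Lat*, the adaptor it acts through, had 18.3 and 4.62 FPKM. *Prkcq*, a kinase downstream of CD28, had 5.43 and 0.857 FPKM, the highest ratio of the list. The T cell transcription factors *Tcf7*, *Lef1* and *Bcl11b* were lower by 3.59-fold, 4.90-fold and 5.19-fold. *Skap1*, an adaptor, was 3.81-fold lower, and *Il7r*, the receptor for the survival cytokine IL-7, 4.56-fold. Of 23 genes of haematopoietic cells in general, 12 were in the table and all 12 were lower, against 44.8% of the 812 genes. On the log2(FPKM + 1) scale 11 of the 12 were lower by at least 2-fold, against 28.4%. The median difference of the 12 was -1.49, against 0.65 for all 812. *Laptm5*, a lysosomal protein of leukocytes, had 28.4 FPKM in WT and 9.72 in RhoA-deficient cells.

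Markers of other cells that the preparation could hold moved in both directions. Of 15 macrophage genes, 2 were in the table, both lower. *Gpnmb* had 18.6 FPKM in WT and 3.13 in RhoA-deficient cells, and *Lpl* had 11.9 and 4.08. Their summed level was 30.6 and 7.22 FPKM. *Lyz2* and *Cd14*, which macrophages also express, were not on that list and were higher. *Lyz2* had 3358 FPKM in WT and 6561 in RhoA-deficient cells, and *Cd14* had 65.8 and 132. *S100a9*, the 1 of 13 granulocyte genes found, was higher, with 2.69 FPKM in WT and 16.5 in RhoA-deficient cells. Of 22 genes of B cell receptor signalling and plasma cells, 1 was found, *Fcer2a*, the low-affinity IgE receptor, with 0.641 FPKM in WT and 4.13 in RhoA-deficient cells, opposite to the immunoglobulin genes. No gene of the 19 NK cell and innate lymphoid cell genes, nor of the 20 partners of costimulation, was in the table. *Il7r*, which encodes the CD127 that the study used among its innate lymphoid cell markers, was counted with T cell receptor signalling instead. Of 10 genes of MHC class II and its invariant chain, 5 were found and all 5 were higher, against 55.2% of the 812 genes. Their median difference was 1.16, and their summed level was 563 FPKM in WT and 1451 in RhoA-deficient cells. *Cd74*, set aside by name above, is among these 5 and made up 375 and 1047 FPKM of the sums. The H2 genes among them were 1.76-fold (*H2-Eb1*) to 3.18-fold (*H2-DMb1*) higher. AT2 cells and antigen-presenting leukocytes both express these genes. The 3 dendritic cell genes found, of 13, were class II genes of this kind. The part of these cell types in the differences of the 19 genes was not tested, and a marker outside the 812 genes cannot be called absent.

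**Figure D4:**
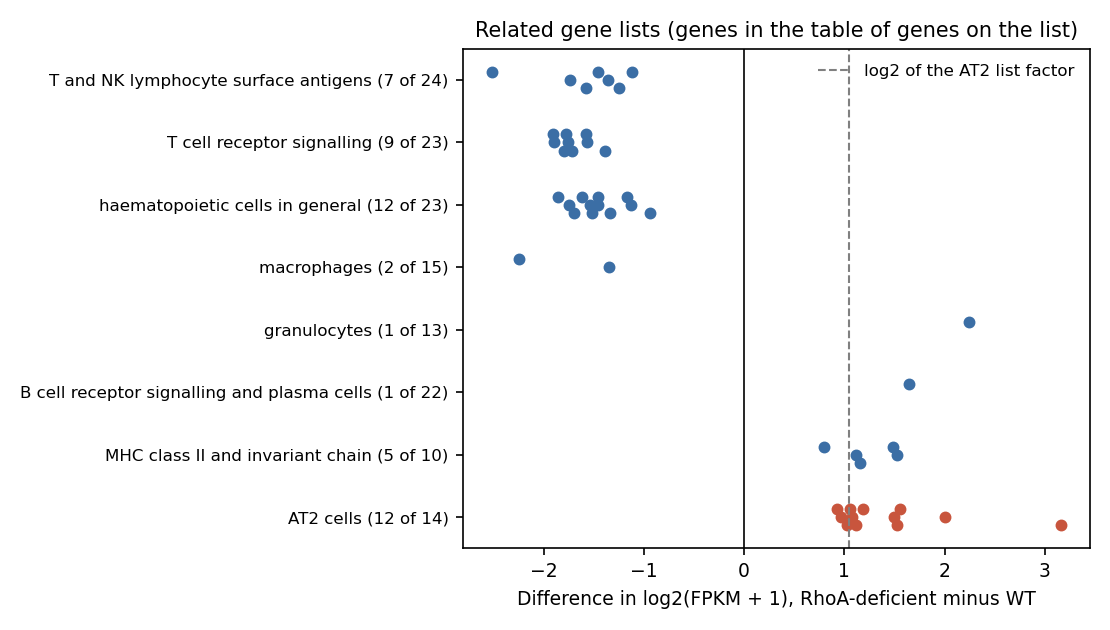
Difference in log2(FPKM + 1), RhoA-deficient minus WT, for each gene of 8 lists that was among the 812, with the number found and the number on the list beside its name. Points of T cell and haematopoietic lists lie left of 0 and those of the AT2 and MHC class II lists right of 0, and the dashed line marks the log2 of the AT2 list factor, left of which 3 AT2 genes and 1 class II gene are lower after scaling to the AT2 list.

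By position, 7 of the 19 genes (36.8%) lie on chromosome 6, against 48 of the 812 (5.91%). That chromosome carries the kappa locus, the T cell receptor beta locus and the coreceptor genes *Cd4*, *Cd8a* and *Cd8b1*, and the selection by symbol makes this share. For *Igkc*, *Cd34*, *Cd7* and *Cd81*, the locus given in the deposited table is longer than the annotated gene whose coordinates are printed here, as for *Igkc* with chr6:70719074-70740554, and its bearing on their values was not tested. Exons of *Cd34* and *Cd81* also share bases with opposite-strand genes, 2.03% with *Gm16897* and 3.61% with *R74862*, respectively.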

How the data were processed

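Per the labels and the study's methods, stranded mRNA libraries were aligned with STAR 2.7.2b and the genotypes compared with Cufflinks. The methods name GRCm38 and the labels' processing notes mm9; all 812 gene identifiers matched GENCODE M21 on GRCm38, whose coordinates are printed. The deposited FPKM values are averages made by the authors, 1 per genotype, for genes marked significant only. The table's columns of fold change, test statistic, p-value and q-value hold the authors' comparison and were not used. Computed here were differences of log2(FPKM + 1), counts, medians, ratios and sequence comparisons (Python 3.11.15, pandas 2.3.3, NumPy 2.4.6, Matplotlib 3.10.9, Biopython 1.88). The calculation was tested on simulated data. The planned limma fit applied only to values per sample and was not run. Depth is unknown, so no interval is given. Every one of the 19 genes is named, and genes of 15 related lists where the list is described. The genes and lists were chosen with earlier results of these data known and are no independent support. Alternatives were pseudocounts of 0.1, 0.01 and none, a mean FPKM of at least 1 or 5, a fold of 1.5 or 4, scaling to an AT2 list, and lymphocyte genes alone. Scaling without *Lyz2* and a 4-fold plain ratio were chosen after seeing the data.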

Additional observations from a re-analysis of the deposited data

How the results depend on the processing

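No paired analysis was possible because each genotype has a pooled FPKM, and for the same reason leaving out each replicate and the replicate block were not run. The 17 lower and 2 higher genes were unchanged with pseudocounts of 0.1, 0.01 or none, and with a mean FPKM of at least 1. Both outcomes were fixed by construction and show no stability. A pseudocount added to both values cannot change which is larger. The lowest mean FPKM among these genes was 3.02, for *Cd28*, so a cut at 1 could remove none of them. A mean FPKM of at least 5 left 13 lower and 2 higher, with 37.3% of the 603 genes kept being lower, and removed *Cd28*, *Cd7*, *Cd83* and *Cd8a*. In log2(FPKM + 1), by a fold of at least 1.5, 2 genes were higher, against 53.4% of the table, where 0 were by 2-fold. By a fold of at least 4 on that scale, 3 were lower, against 0.739% of the table, where 16 were by 2-fold, and by plain ratio, added after seeing the data, 6 were, against 9.85%. Scaling to the AT2 list gave 0 higher genes, a median of -2.28, 3 lower AT2 genes and 1 lower class II gene, with *Cd36* at -0.058 and *Cd81* at -0.19. Scaling without *Lyz2*, chosen after seeing the data, gave 0 higher, a median of -2.33, 6 lower and 6 higher AT2 genes, 2 lower and 3 higher class II genes, *Cd36* at -0.16 and *Cd81* at -0.30. It moved the median of the 812 genes by -1.12 and split them into 617 lower and 195 higher. The cause was not tested. Among the 15 lymphocyte genes alone, 0 were higher by construction. Of 129 values of single genes under the alternatives, 102 stayed within 1.5 times, 23 moved further and 4 reversed. All that moved further or reversed did so under scaling to the AT2 list, with or without *Lyz2*, where most values changed. The FPKM filters cannot change the difference of a single gene, so their values stayed by construction. The authors' own test was not used, and without values per sample or depth no difference was set against replicate or counting error here.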

Other observations

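Further genes of lymphocyte biology stood in the table outside the lists, and 15 of them, chosen after their values were seen, were all lower in RhoA-deficient cells. *Tcrg-C1*, a constant region of the T cell receptor gamma chain, had 3.11 FPKM in WT and 0.434 in RhoA-deficient cells, the highest ratio of the 15 at 7.18-fold. *S1pr1*, the receptor by which lymphocytes leave lymphoid tissue along sphingosine-1-phosphate and which endothelium also expresses, had 28.3 and 8.66 FPKM, and *S1pr4* had 5.24 and 0.988. *Ltb*, the membrane-bound cytokine lymphotoxin beta, had 33.5 and 8.34 FPKM, and *Slfn1*, of the Schlafen family linked to T cell quiescence, had 8.48 and 1.40. The 3 *Gimap* genes of the table, GTPases of lymphocyte survival, were close to each other, with *Gimap4* 3.33-fold, *Gimap6* 2.88-fold and *Gimap9* 3.25-fold lower. *Pecam1*, an adhesion molecule of endothelium and of leukocytes, had the smallest ratio of the 15 at 1.79-fold, with 10.6 FPKM in WT and 5.95 in RhoA-deficient cells. Because these genes were picked for their names among genes already seen to be lower, their shared direction supports nothing by itself.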
